A study of Mus musculus with 24 samples.

Results

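Organoids of passage 2 grown from salivary glands taken 14 days after irradiation (IR) were compared with passage 2 organoids from sham-irradiated glands of the same day. The comparison took every library that the labels place at this day and passage, which was 6 of the 24 libraries of the series, 3 sham and 3 IR. All glands came from C57BL/6 mice, and the labels call the source cells salivary gland stem/progenitor cells. The organoids of both groups grew in Matrigel with EGF, FGF2, insulin, the glucocorticoid dexamethasone and the kinase inhibitor Y-27632. The glands, not the cultures, are labelled as irradiated, and the day is that of the gland. The sources used here do not give the radiation dose, the age and sex of the mice or whether glands were pooled. Libraries were made with QuantSeq, which reads the 3' end of transcripts. They are called sham 1 to 3 and IR 1 to 3 after the replicate numbers in their titles, and levels are given in CPM, the count of a gene per 1000000 gene counts of its library after TMM scaling. A signed value in brackets after the levels of a gene is its log2 fold change, IR over sham, and every adjusted p is from edgeR unless DESeq2 is named.

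A salivary duct has an outer layer of basal cells, which carry the keratins Krt5 and Krt14 and attach to the basement membrane, and an inner layer of luminal cells, which carry Krt7, Krt8 and Krt18 and line the lumen. Basal cells include progenitors, and in culture they can also turn towards a squamous, skin-like fate with keratins such as Krt6a. BMP ligands signal through receptor kinases and SMAD proteins to switch on Id genes, while interferons act through cell surface receptors and IRF factors to switch on a large set of antiviral genes.

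The 6 libraries held 1694307 to 2510480 gene counts, with 14060 to 14839 genes detected. Counts of Gm42418, a locus that shares sequence with ribosomal RNA, made up 28.4%, 25.5% and 22.6% of the total in sham 1 to 3 and 26.5%, 27.4% and 17.2% in IR 1 to 3. After ribosomal RNA genes were set aside, a library held 1023223 to 1817282 counts, and genes of a few CPM rest on few reads. Neither group was uniform, and replicate libraries differed beyond sampling noise (chi-square per degree of freedom from 2.31 to 19.3). Across 10563 genes within these libraries, which share depth and composition effects, the log2 CPM of sham 2 and sham 3 correlated at Pearson's r = 0.972, but each correlated with sham 1 at 0.929 and 0.930. Sham 1 stood closer to IR 1 (0.951) and IR 2 (0.943), and IR 3 stood closer to sham 2 (0.941) and sham 3 (0.944) than to IR 1 (0.917) or IR 2 (0.893). Sham 1 and IR 3 therefore sat apart from the libraries that share their labels, and the named genes are given library by library. Groups were taken from the labels. Whether the labels of these 2 libraries were exchanged was not tested, and each IR over sham value below depends on them. In the mean of interferon, MHC class I and cell cycle genes both lay nearer to libraries of the other label. In the mean of the basal duct genes, and in Wfdc2 and Krt8, IR 3 stayed outside the range of the 3 sham libraries. Sham 1 likewise stayed outside that of the 3 IR libraries. Wfdc2 and Krt8 are the genes that passed the test under these labels, so their separation was favoured by how they were picked. For Krt7, Id1 and Slc12a2, IR 3 lay within the sham range.

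Krt5 and Krt14 were among the abundant transcripts of all 6 libraries, and Krt14 ranged from 2985 to 5355 CPM. Of 17 salivary stem and progenitor markers, 13 had enough counts to be tested. Cd44, an adhesion receptor for hyaluronan, stood at 774, 361 and 321 CPM in sham and 619, 524 and 472 CPM in IR libraries. Ly6a, a surface antigen also known as Sca-1, stood at 742, 1588 and 1329 CPM and 833, 958 and 2439 CPM in the same order. The IR value of Ly6a was led by IR 3. The median log2 fold change of the 13 markers was 0.09, with 0 called by edgeR or DESeq2 and 0 at an unadjusted p under 0.05 (2 higher without sham 1). Etv5, a transcription factor downstream of FGF signalling, was lower in every IR library (22.2, 20.1 and 28.9 CPM in sham 1 to 3 and 13.2, 14.6 and 18.1 CPM in IR 1 to 3, −0.62, adjusted p = 0.755).

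The genes that passed the test were luminal. edgeR's quasi-likelihood test called 2 of 10563 genes at an adjusted p under 0.05, which is 0.0189% of the genes, and both were higher in IR organoids. An unadjusted p under 0.05 was reached by 6.73% of genes (3.93% higher, 2.80% lower), and the libraries of the groups did not overlap for 11.5% (6.06% higher, 5.49% lower). The median log2 fold change of all tested genes was 0.01, with quartiles at −0.19 and 0.22. Wfdc2 (ENSMUSG00000017723), a secreted protein with protease inhibitor domains found in ductal epithelium, stood at 452, 311 and 324 CPM in sham 1 to 3 and 1166, 958 and 654 CPM in IR 1 to 3. It rose 2.55-fold (log2 fold change 1.35, SE 0.20, adjusted p = 0.00881), and the lowest IR library, IR 3, lay above the highest sham library, sham 1. Krt8 (ENSMUSG00000049382), a keratin of simple and luminal epithelium, stood at 50.6, 41.3 and 42.6 CPM in sham 1 to 3 and 118, 121 and 74.95 CPM in IR 1 to 3. It rose 2.32-fold (log2 fold change 1.22, SE 0.21, adjusted p = 0.0454), again with no overlap and with IR 3 the lowest of its group. The calls of both genes were lost in edgeR without sham 2, sham 3, IR 1 or IR 2, with adjusted p from 0.0615 to 0.225 for Wfdc2 and from 0.347 to 0.502 for Krt8. Both were also lost when only these 6 libraries were fitted (adjusted p = 0.382 for each). In RNA from whole organoids, more luminal cells and more of a transcript per luminal cell cannot be told apart.

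Krt18, the partner with which Krt8 forms filaments, was measured at 159.7, 179.5 and 151 CPM in sham 1 to 3 and 382, 363 and 196 CPM in IR 1 to 3 (log2 fold change 0.94, SE 0.22, adjusted p = 0.248). Every IR library exceeded every sham library, but IR 3 sat only just above the sham range. Krt7, a further keratin of ducts, was measured at 111, 72.6 and 76.2 CPM in sham 1 to 3 and 231, 253 and 84.0 CPM in IR 1 to 3 (1.12, adjusted p = 0.406). IR 1 and IR 2 exceeded the highest sham library, whereas IR 3 fell inside the sham range. Krt19, a luminal keratin in many ducts, was low throughout, at 5.12, 7.09 and 4.74 CPM in sham 1 to 3 and 4.59, 5.31 and 1.45 CPM in IR 1 to 3 (−0.67, adjusted p = 0.942), and showed no such pattern. Ltf, which encodes the iron-binding milk and saliva protein lactoferrin, was measured at 24.4, 26.6 and 26.7 CPM in sham 1 to 3 and 119, 206 and 56.1 CPM in IR 1 to 3. Its 3 sham libraries lay within 1 narrow band below all IR libraries, and its fold change of 4.85 narrowly missed the threshold (log2 fold change 2.28, SE 0.41, adjusted p = 0.0527). Lcn2, a secreted binder of bacterial siderophores, followed the same order, at 236, 259 and 348 CPM in sham 1 to 3 and 607, 777 and 423 CPM in IR 1 to 3 (1.10, adjusted p = 0.606).

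Of the 21 tested luminal duct genes, 15 were higher and 6 lower by sign, 2 were called, and 6 reached an unadjusted p under 0.05, all higher (3.93% of all genes did so). The libraries of the groups did not overlap for 7, all higher, against 6.06% of all genes. The list's median was 0.28, and it stayed above 0 in all 15 alternatives, from 0.21 to 0.46. The 6 members at an unadjusted p under 0.05 became 7 without sham 1 (4.86% of all genes), 8 without IR 3 (5.64%) and 5 without IR 2 (3.92%), with 1 lower member in each case, and stayed at 6 without each of the others. Other luminal genes did not share this order. Epcam, an adhesion protein of the epithelial surface, was level at 397, 377 and 384 CPM in sham 1 to 3 and 391, 358 and 366 CPM in IR 1 to 3 (−0.05), and so was Sox9, a transcription factor of ducts, at 418, 584 and 575 CPM in sham 1 to 3 and 567, 474 and 633 CPM in IR 1 to 3 (0.09). Slpi, a secreted protease inhibitor, was highest in IR 3, at 451, 592 and 542 CPM in sham 1 to 3 and 499, 342 and 1078 CPM in IR 1 to 3 (0.28). The tight junction genes Cldn3 (0.76, adjusted p = 0.781) and Cldn4 (0.62, adjusted p = 0.842) exceeded every sham library in IR 1 and IR 2 and lay within the sham range in IR 3, at 18.5 CPM and 122 CPM. Kit, a receptor tyrosine kinase of duct cells also used as a progenitor marker, was near its detection limit with 6, 0 and 1 counts in sham and 0, 0 and 2 in IR libraries.

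**Figure D1:**
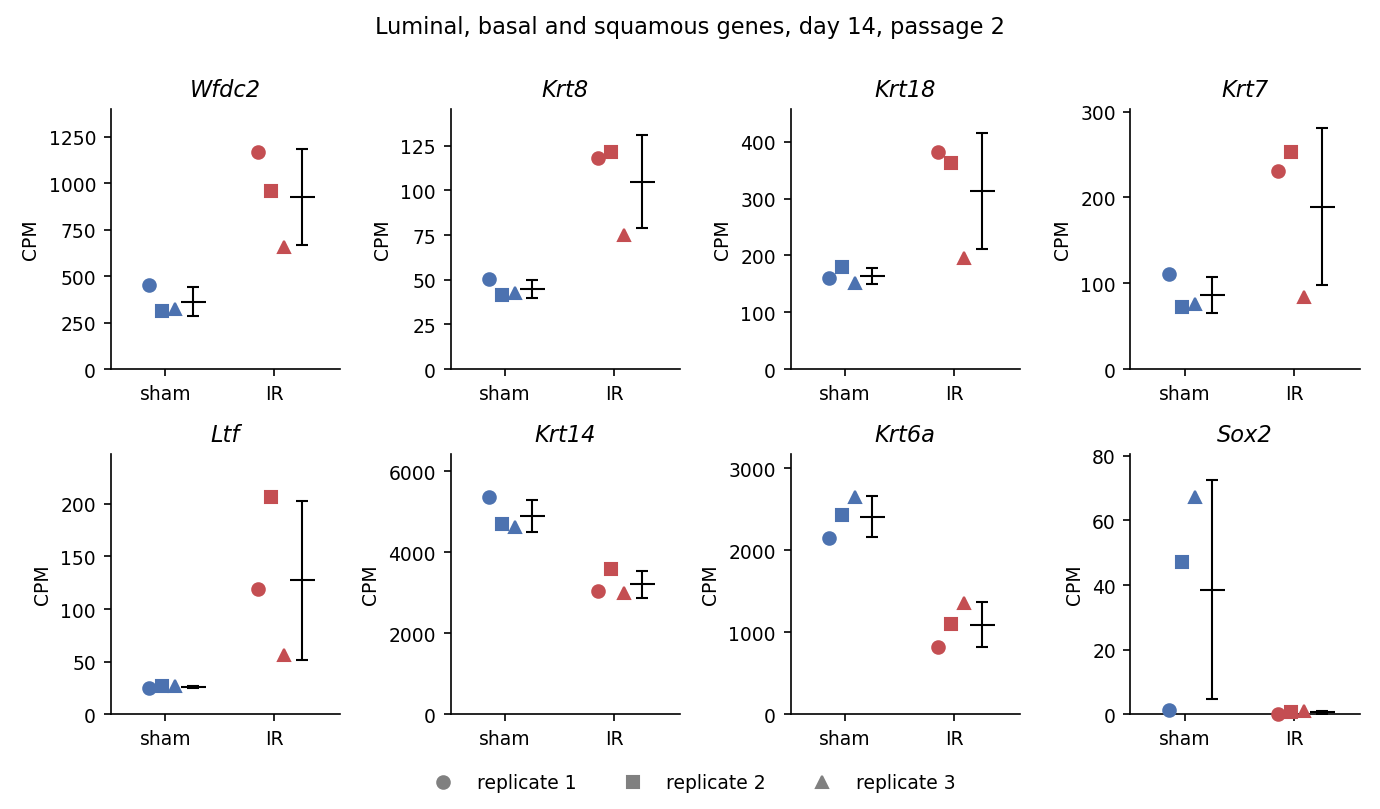
Level in CPM (y axis, from 0) of 8 luminal, basal or squamous genes in each sham (blue) and IR (red) library, with the marker shape giving the replicate and the mean ± SD (n = 3) in black beside the points. Wfdc2, Krt8, Krt18 and Ltf are above sham in all 3 IR libraries with IR 3 lowest, Krt7 of IR 3 lies in the sham range, and Krt14 and Krt6a are lower in all 3.

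Ion transporters that drive fluid and salt movement across duct and acinar epithelium had the same library order. Slc12a2, the sodium-potassium-chloride cotransporter that loads chloride into secretory cells, was measured at 291, 226 and 223 CPM in sham 1 to 3 and 573, 573 and 245 CPM in IR 1 to 3 (log2 fold change 0.91, SE 0.24, adjusted p = 0.406). IR 1 and IR 2 were nearly equal and well above sham, and IR 3 lay among the sham libraries. Slc4a4, a sodium bicarbonate cotransporter, behaved alike, at 50.02, 28.3 and 21.5 CPM in sham 1 to 3 and 110.1, 93.6 and 26.1 CPM in IR 1 to 3 (1.19, adjusted p = 0.561). Atp1b1, the beta subunit of the sodium pump, was at 298, 249.8 and 268 CPM in sham 1 to 3 and 583, 508 and 306 CPM in IR 1 to 3 (0.77, adjusted p = 0.630) with no overlap between groups. Of 13 tested genes of duct transport, these 3 reached an unadjusted p under 0.05, all higher (3.93% of all genes did so). The median was 0.17. Without sham 1 the median was 0.034, with 1 lower member beside the 3, and without IR 1 it was 0.10, with 1 higher and 1 lower. Scnn1a, part of the channel through which ducts take up sodium, was low and level, at 7.96, 6.50 and 11.2 CPM in sham 1 to 3 and 11.5, 11.9 and 7.60 CPM in IR 1 to 3 (0.21). edgeR called 0 of the 13, and DESeq2 called Slc12a2 (adjusted p = 0.0486).

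Acinar markers were sparse. Aqp5, the water channel of acinar cells, was measured at 22.2, 25.99 and 29.7 CPM in sham 1 to 3 and 45.9, 39.8 and 11.9 CPM in IR 1 to 3 (0.28, adjusted p = 0.947), with IR 1 and IR 2 above all sham libraries and IR 3 below them. Pip, a secreted protein of exocrine glands, was the acinar marker with the highest level, at 457, 1527 and 1323 CPM in sham 1 to 3 and 493, 358 and 1973 CPM in IR 1 to 3 (−0.22, adjusted p = 0.971). It was high in sham 2, sham 3 and IR 3 and lower in the other 3 libraries. Dcpp3, a member of a family of near-identical genes whose reads may have been shared, had 4, 24 and 26 counts in sham and 0, 3 and 2 in IR libraries. Prol1, a proline-rich secreted protein, had 1, 0 and 0 counts in sham and 6, 12 and 3 in IR libraries, and Mucl2, a mucin-like secreted protein, had 0, 0 and 0 and 6, 4 and 4. Of 9 tested acinar genes, 2 were higher and 2 lower at an unadjusted p under 0.05, against 3.93% and 2.80% of all genes. edgeR and DESeq2 called 0, with no DESeq2 adjusted p for Dcpp3 and Prol1. With 1 library left out, 0 to 2 were higher and 1 to 5 lower, the last without IR 3. The median was −0.22. It was −1.37 without IR 3 and −0.60 without sham 1, and it changed sign in 2 of 15 alternatives.

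Basal genes leaned the other way. Of the 21 tested basal duct genes, 20 were lower by sign in IR organoids, although edgeR and DESeq2 called 0. DESeq2 gave no adjusted p to Sox2 and Igfbp2, named below. At an unadjusted p under 0.05, 4 were lower and 0 higher, against 2.80% of all genes lower, and 9 had lower values in every IR library than in any sham library, against 5.49% of all genes. The median of −0.37 stayed between −0.44 and −0.33 over the 15 alternatives, and the list mean by library was almost the same in IR 1 to 3 (7.32, 7.31 and 7.34 log2 CPM) and higher in sham 1 to 3 (7.86, 8.10 and 8.04). Here IR 3 did not depart from its group. Krt14, a main keratin of basal cells, was measured at 5355, 4697 and 4618 CPM in sham 1 to 3 and 3048, 3595 and 2985 CPM in IR 1 to 3 (log2 fold change −0.61, SE 0.33, adjusted p = 0.780). Krt5, its filament partner, was at 3363, 2687 and 2894 CPM in sham 1 to 3 and 1970.4, 2185 and 1377 CPM in IR 1 to 3 (log2 fold change −0.69, SE 0.43, adjusted p = 0.812). Neither overlapped between groups and neither passed the test. Dsg3, a desmosomal cadherin, was at 97.8, 152 and 129.6 CPM in sham 1 to 3 and 65.9, 68.4 and 69.2 CPM in IR 1 to 3 (−0.90, adjusted p = 0.596), and Dsp, the desmosomal plaque protein desmoplakin, had a log2 fold change of −0.60 (adjusted p = 0.691).

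Sox2, a transcription factor of progenitors in many epithelia, gave the most divided values of the basal list. It had 2, 80 and 156 counts in sham and 0, 1 and 3 counts in IR libraries, or 1.14, 47.2 and 67.2 CPM and 0, 0.664 and 1.09 CPM (log2 fold change −5.77, SE 1.62, adjusted p = 0.496). Sham 2 and sham 3 expressed it, while sham 1 was about as low as the 3 IR libraries. Igfbp2, which binds insulin-like growth factors, was lower in every IR library, at 29.0, 47.2 and 34.9 CPM in sham 1 to 3 and 10.3, 2.65 and 6.16 CPM in IR 1 to 3 (log2 fold change −2.51, SE 0.73, adjusted p = 0.513). With the replicate number as a block, Sox2 was among 5 called genes, which is given with the other settings in the closing section.

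Squamous genes were lower in IR organoids in part. Of 25 tested, 18 were lower and 7 higher by sign, with a highest log2 fold change of 1.58. At an unadjusted p under 0.05, 8 were lower and 0 higher, against 2.80% of all genes lower. The groups did not overlap for 6 lower (5.49% of all genes) and 1 higher (6.06%). edgeR and DESeq2 called 0, and the median was −0.62 (−1.22 without IR 3). The members named below are all from the lower side. The list mean was 4.34, 4.87 and 5.15 log2 CPM in sham 1 to 3 and 3.72, 3.79 and 4.53 in IR 1 to 3, so IR 3 lay above sham 1. Krt6a, a keratin of activated and wounded epithelium and the squamous marker with the highest level, was measured at 2149.7, 2424 and 2645 CPM in sham 1 to 3 and 815, 1099 and 1359.6 CPM in IR 1 to 3 (log2 fold change −1.14, SE 0.43, adjusted p = 0.646). The groups did not overlap. Its neighbour and close copy Krt6b, whose reads may have been shared with it, was at 109, 249 and 343 CPM in sham 1 to 3 and 15.5, 12.6 and 94.9 CPM in IR 1 to 3 (−2.44, adjusted p = 0.691), and Krt16, their partner, at 119, 157 and 177 CPM in sham 1 to 3 and 27.5, 31.9 and 78.2 CPM in IR 1 to 3 (−1.68, adjusted p = 0.750). For both, IR 1 and IR 2 were far below sham and IR 3 lay between. Lgals7, a galectin of stratified epithelium, was lowest in IR 3, at 255, 322 and 391 CPM in sham 1 to 3 and 87.2, 163 and 49.2 CPM in IR 1 to 3 (log2 fold change −1.71, SE 0.56, adjusted p = 0.561). The lower count of 8 was 10 without IR 3, 9 without sham 1, 4 without sham 2, and 3 without sham 3, IR 1 or IR 2 in turn. Krt13, a keratin of non-cornified stratified epithelium, was at 0.568, 13.0 and 24.5 CPM in sham 1 to 3 and 1.72, 0.664 and 1.09 CPM in IR 1 to 3 (−3.42, adjusted p = 0.687), and Krtdap, a keratinocyte differentiation protein, at 11.4, 62.6 and 95.2 CPM in sham 1 to 3 and 6.31, 2.65 and 17.7 CPM in IR 1 to 3 (−2.53, adjusted p = 0.726). For these, sham 1 was near the IR libraries, as it was for Sox2.

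Among contractile genes of myoepithelial cells, Acta2 and Mylk were near their detection limit, whereas Tpm2 was not. Of 11 markers 4 were tested, and all 4 were lower by sign. Acta2, smooth muscle actin, had 14, 11 and 13 counts in sham and 5, 0 and 7 in IR libraries (−1.75, adjusted p = 0.738). Mylk, the kinase that activates myosin light chain, was at 7.39, 7.09 and 11.6 CPM in sham 1 to 3 and 2.87, 1.33 and 6.88 CPM in IR 1 to 3 (−1.11, adjusted p = 0.676), and Tpm2, a tropomyosin with the highest level of the 4, at 140.4, 133 and 149 CPM in sham 1 to 3 and 118, 119 and 103 CPM in IR 1 to 3 (−0.31, adjusted p = 0.886). The groups did not overlap for these 3 genes, all lower, as for 5.49% of all genes. Of the 4, 2 reached an unadjusted p under 0.05, both lower (2.80% of all genes were lower). With any library left out 0 or 1 did, and edgeR and DESeq2 called 0. DESeq2 gave no adjusted p to Acta2 and Mylk.

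Bmp4 (ENSMUSG00000021835), the ligand named in the title of the series, was close to the detection limit. It had 2, 0 and 2 counts in sham and 6, 9 and 5 counts in IR libraries, or 1.14, 0 and 0.861 CPM and 3.44, 5.97 and 1.81 CPM. Each IR library was above each sham library, with IR 3 lowest, and the difference was not called (log2 fold change 2.24, SE 0.74, adjusted p = 0.561). Fstl1, a secreted follistatin-like glycoprotein that can bind BMP4, was at 3.41, 1.77 and 3.01 CPM in sham 1 to 3 and 9.75, 11.9 and 5.79 CPM in IR 1 to 3 (log2 fold change 1.66, SE 0.48, adjusted p = 0.496), also with no overlap. Acvr2a, a type II receptor for activins and BMPs, was at 26.1, 44.9 and 35.3 CPM in sham 1 to 3 and 23.5, 25.9 and 28.2 CPM in IR 1 to 3 (−0.45, adjusted p = 0.701), and Smad5, which carries the signal to the nucleus, differed little, at 102, 99.8 and 104 CPM in sham 1 to 3 and 96.3, 97.5 and 91.2 CPM in IR 1 to 3 (−0.10). Among the 16 tested genes for ligands, receptors or antagonists, an unadjusted p under 0.05 was reached by 2 higher and 1 lower. Of all genes, 3.93% were higher and 2.80% lower. edgeR and DESeq2 called 0 of the 16, but DESeq2 gave no adjusted p to Bmp4 and Fstl1. The median was −0.02.

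The Id genes, inhibitors of basic helix-loop-helix factors and standard targets of BMP signalling, split the IR libraries. Id1 stood at 10.8, 10.6 and 12.9 CPM in sham 1 to 3 and 61.4, 65.7 and 11.6 CPM in IR 1 to 3 (log2 fold change 1.95, SE 0.55, adjusted p = 0.496). IR 1 and IR 2 were far above sham, and IR 3 fell within the sham range. Id3 was at 34.7, 24.2 and 26.7 CPM in sham 1 to 3 and 118, 125 and 39.5 CPM in IR 1 to 3 (log2 fold change 1.70, SE 0.56, adjusted p = 0.561), with IR 3 just above the highest sham library. Id2 was at 104, 125 and 130.5 CPM in sham 1 to 3 and 332, 331 and 134 CPM in IR 1 to 3 (log2 fold change 1.14, SE 0.25, adjusted p = 0.185), and IR 3 again lay just above sham 3. Id4 had lower values in every IR library, at 62.0, 62.0 and 64.6 CPM in sham 1 to 3 and 40.1, 19.9 and 49.6 CPM in IR 1 to 3 (−0.75, adjusted p = 0.844), and Hey1, a transcription factor shared with Notch signalling, was low in sham 1 and in the IR libraries, at 7.96, 31.3 and 24.98 CPM in sham 1 to 3 and 5.73, 3.32 and 10.1 CPM in IR 1 to 3 (log2 fold change −1.66, SE 0.48, adjusted p = 0.520). The 8 target genes of this pathway with enough counts included 3 higher and 1 lower at an unadjusted p under 0.05. Of all genes, 3.93% were higher and 2.80% lower. The counts of 3 and 1 were the same without any single library. edgeR called 0 of the 8 genes, and DESeq2 called Id1 (adjusted p = 0.0289) and Id2 (adjusted p = 0.00495). Without IR 3, edgeR called Id1 (log2 fold change 2.46, adjusted p = 0.0120) and Id2 (1.47, adjusted p = 0.000407).

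**Figure D2:**
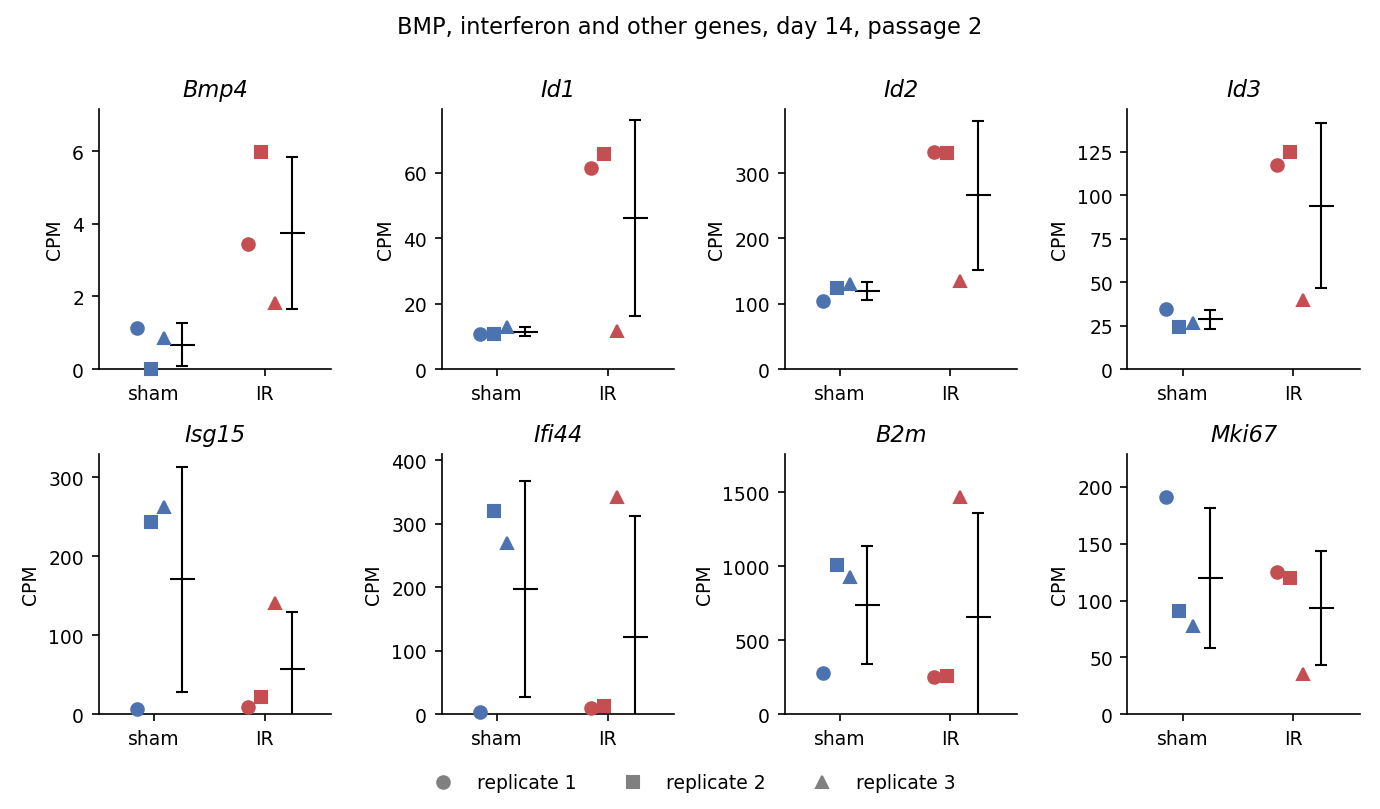
Level in CPM (y axis, from 0) of Bmp4, 3 Id genes, 3 interferon response or MHC genes and Mki67 in each sham (blue) and IR (red) library, with the marker shape giving the replicate and the mean ± SD (n = 3) in black, cut at 0 where it would pass below. IR 3 lies with the sham libraries for Id1 and Id2, and sham 1 lies with IR 1 and IR 2 for Isg15, Ifi44 and B2m.

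Inflammatory mediators downstream of NF-kappaB were mostly higher in IR organoids. Of 25 tested, 21 were higher by sign, 8 were higher and 0 lower at an unadjusted p under 0.05 (3.93% of all genes were higher), and 7 did not overlap, all higher (6.06% of all genes). The median of 0.45 stayed between 0.33 and 0.75 over the 15 alternatives. edgeR and DESeq2 called 0. Cxcl5, a chemokine that draws neutrophils, was at 329, 314 and 298 CPM in sham 1 to 3 and 1115, 1516 and 683 CPM in IR 1 to 3 (log2 fold change 1.82, SE 0.45, adjusted p = 0.360), with every IR library well above the highest sham value. C3, the central complement component, was at 19.9, 22.4 and 24.98 CPM in sham 1 to 3 and 70.0, 98.2 and 23.9 CPM in IR 1 to 3 (log2 fold change 1.48, SE 0.46, adjusted p = 0.530), and IR 3 again fell within sham. Cxcl1, a further neutrophil chemokine, had its highest value in IR 3, at 228, 269.9 and 304 CPM in sham 1 to 3 and 333, 407 and 817 CPM in IR 1 to 3 (0.96, adjusted p = 0.687). The acute phase genes Saa1 (2.38, adjusted p = 0.581) and Saa3 (2.27, adjusted p = 0.606), close copies whose reads may have been shared, were highest in IR 2, at 33.2 and 49.1 CPM. Without sham 1 the 8 genes at an unadjusted p under 0.05 became 4, against 4.86% of all genes higher.

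The next genes belong to no list and were picked by smallest p among genes whose groups did not overlap. That each was higher or lower in every IR library follows from this choice. In the higher direction they included Cp, which encodes the copper-carrying ferroxidase ceruloplasmin. Cp stood at 350.1, 295 and 345 CPM in sham 1 to 3 and 1334, 1590.0 and 471 CPM in IR 1 to 3 (log2 fold change 1.78, SE 0.36, adjusted p = 0.181), so that IR 1 and IR 2 were far above sham and IR 3 was just above it. Phf20, a reader of histone marks in an acetyltransferase complex, differed from most genes here in that IR 3 was its highest library, at 15.3, 14.8 and 17.2 CPM in sham 1 to 3 and 32.1, 31.9 and 40.2 CPM in IR 1 to 3 (log2 fold change 1.14, SE 0.24, adjusted p = 0.181). Ccdc141 (10.2, 14.8 and 8.61 CPM in sham 1 to 3 and 39.6, 23.9 and 21.4 CPM in IR 1 to 3, 1.34, adjusted p = 0.232) and the lipid transporter gene Abca3 (6.25, 5.91 and 3.45 CPM in sham 1 to 3 and 12.6, 21.2 and 9.05 CPM in IR 1 to 3, 1.44, adjusted p = 0.232) were higher in all IR libraries. In the lower direction, the smallest p among genes picked in this way belonged to Capns2, a calpain subunit. It had 4, 23 and 31 counts in sham and 2, 2 and 3 in IR libraries (−3.01, adjusted p = 0.248). Sham 1 was close to the IR libraries there too. Epha1, an ephrin receptor, was at 89.2, 118 and 152 CPM in sham 1 to 3 and 42.4, 79.0 and 35.5 CPM in IR 1 to 3 (−1.22, adjusted p = 0.488). Pycard, the adaptor that links sensors to caspases in inflammasomes, was at 25.6, 37.8 and 33.6 CPM in sham 1 to 3 and 9.18, 9.95 and 23.2 CPM in IR 1 to 3 (−1.13, adjusted p = 0.496). Vangl1, a planar cell polarity protein, was at 184, 233 and 233 CPM in sham 1 to 3 and 157, 145 and 128 CPM in IR 1 to 3 (−0.60, adjusted p = 0.496), and Ckmt1, the mitochondrial creatine kinase, at 27.3, 39.0 and 36.2 CPM in sham 1 to 3 and 10.3, 17.3 and 15.2 CPM in IR 1 to 3 (−1.26, adjusted p = 0.496). Mapt, which encodes tau, had 11, 11 and 24 and 4, 4 and 7 counts (−1.62, adjusted p = 0.496), and Pqlc1 was at 71.6, 63.2 and 85.3 CPM in sham 1 to 3 and 49.3, 41.8 and 55.04 CPM in IR 1 to 3 (−0.59, adjusted p = 0.496).

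DESeq2 called 17 of the 5648 genes to which it gave an adjusted p (0.301%), all higher. They were Wfdc2, Krt8, Krt7, Krt18 and Ltf of the luminal list, Slc12a2, Id1, Id2, Npnt, Cp, Phf20 and Ccdc141, and Ctsh, Tnip3, Tmem176b, Cgnl1 and Vnn1. Npnt, the matrix ligand nephronectin, rests on 4, 2 and 4 counts in sham and 21, 40 and 2 in IR libraries, with IR 3 no higher than sham. Ctsh, the lysosomal protease cathepsin H, was at 122, 63.2 and 73.6 CPM in sham 1 to 3 and 190.4, 222 and 118 CPM in IR 1 to 3 (DESeq2 adjusted p = 0.00313, edgeR 0.181). Tnip3, an inhibitor of NF-kappaB signalling, was at 36.4, 13.0 and 13.3 CPM in sham 1 to 3 and 94.0, 102 and 27.2 CPM in IR 1 to 3 (DESeq2 adjusted p = 0.00378, edgeR 0.232). In both, sham 1 was the highest sham library and exceeded IR 3. Tested genes without a DESeq2 adjusted p could not be called by it, which limits every list count of 0 DESeq2 calls.

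**Figure D3:**
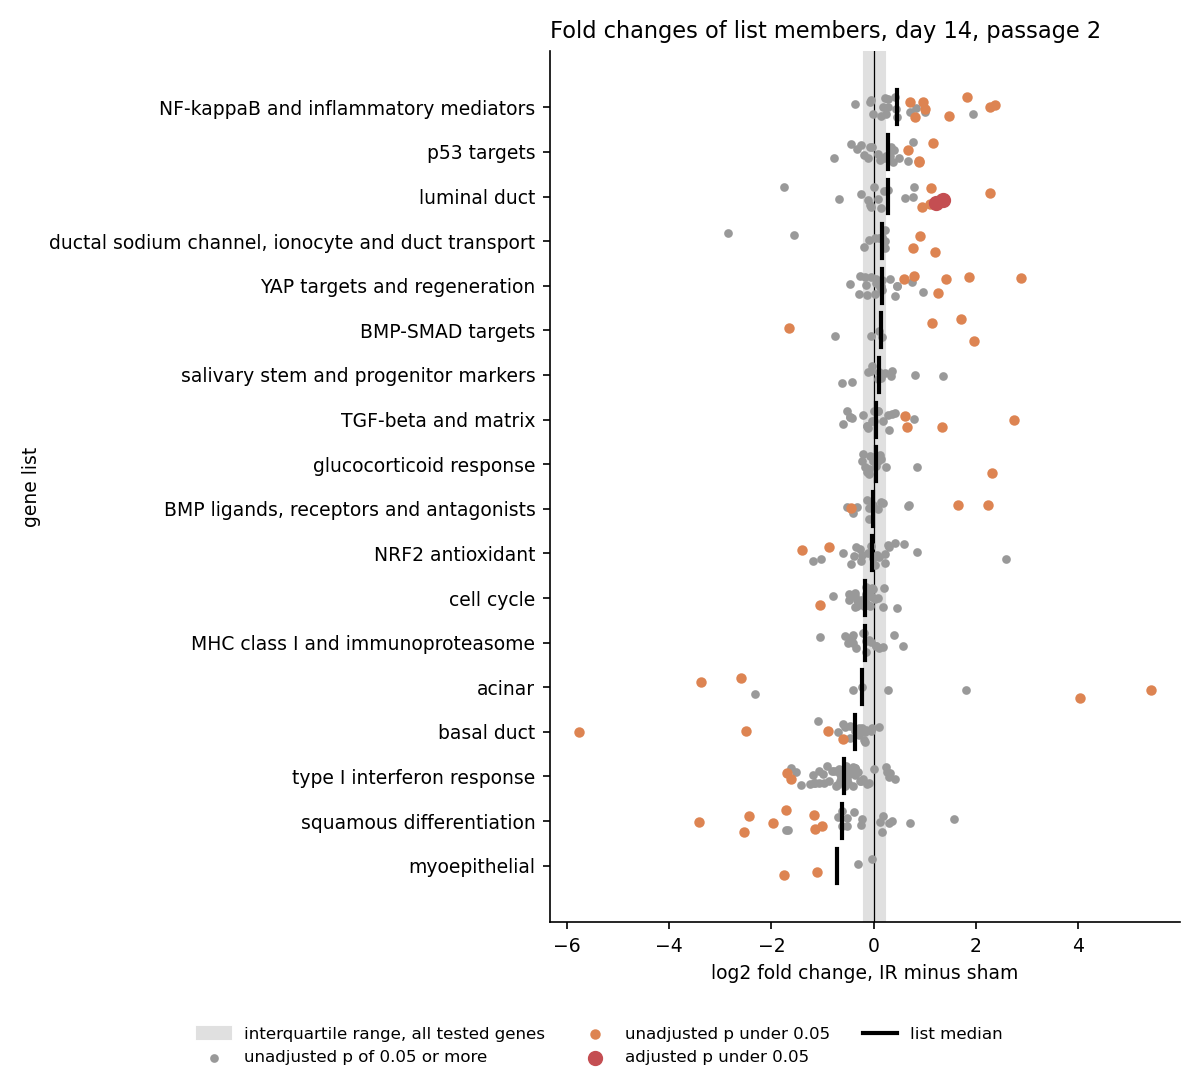
Log2 fold change of IR minus sham (x axis) for each tested member of 18 gene lists (y axis), with the list median as a black bar and the interquartile range of all tested genes (−0.19 to 0.22) shaded. The 2 called genes, in red, are in the luminal list, and the medians run from 0.45 for NF-kappaB mediators to −0.71 for the 4 myoepithelial genes.

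Interferon response genes differed widely among the 6 libraries, and the differences did not follow the groups. The mean of the 53 tested genes was 2.11, 5.87 and 5.72 log2 CPM in sham 1 to 3 and 2.48, 2.87 and 5.77 in IR 1 to 3. Within the sham group, 53 of 53 were lowest in sham 1, as were 38.2% of all tested genes. Within the IR group, 52 of 53 were highest in IR 3, as were 38.2% of all tested genes, and the exception was Ifi27. Both held for 52 of 53 genes, against 18.7% of all genes. This order was seen in the data and is a description without a test.

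Isg15, a ubiquitin-like modifier, stood at 6.82, 243 and 263 CPM in sham 1 to 3 and 8.60, 21.2 and 140.5 CPM in IR 1 to 3 (log2 fold change −1.53, SE 1.00, adjusted p = 0.830). Ifi44, an interferon-induced protein, was at 2.84, 319.5 and 269 CPM in sham 1 to 3 and 9.75, 12.6 and 342 CPM in IR 1 to 3 (−0.66, adjusted p = 0.948), and Rsad2, the antiviral enzyme viperin, at 6.82, 206 and 151 CPM in sham 1 to 3 and 5.73, 9.95 and 148 CPM in IR 1 to 3 (−1.07, adjusted p = 0.904). For these 3 genes, sham 1, IR 1 and IR 2 formed a low set and sham 2, sham 3 and IR 3 a high one. Bst2, the tether of budding viruses known as tetherin, was at 17.6, 197 and 198 CPM in sham 1 to 3 and 19.5, 45.8 and 67.7 CPM in IR 1 to 3 (−1.61, adjusted p = 0.722), where IR 3 reached only part of the level of sham 2 and sham 3. Ifit2, which binds foreign RNA, was alike at 2.27, 42.5 and 35.7 CPM in sham 1 to 3 and 2.29, 5.31 and 15.2 CPM in IR 1 to 3 (−1.70, adjusted p = 0.726). Parp9, an ADP-ribosyltransferase family member, was at 34.1, 244 and 234 CPM in sham 1 to 3 and 41.3, 55.7 and 159 CPM in IR 1 to 3 (−0.98, adjusted p = 0.781). Ifitm3, a membrane protein that blocks virus entry, was high everywhere and spread less, at 878, 1629.5 and 1734 CPM in sham 1 to 3 and 833, 1005 and 1446 CPM in IR 1 to 3 (−0.37, adjusted p = 0.869). The IRF factors Irf9 and Irf7, named here for their role in the response, had the same order. Irf9 was at 22.2, 149 and 155 CPM in sham 1 to 3 and 25.8, 44.5 and 123 CPM in IR 1 to 3, and Irf7 had 0, 90 and 109 counts in sham and 8, 16 and 157 in IR libraries.

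Of the 53 genes, 2 were lower and 0 higher at an unadjusted p under 0.05 (Bst2 and Ifit2), against 2.80% of all genes lower. edgeR and DESeq2 called 0, with no DESeq2 adjusted p for Ifit2. The median log2 fold change was −0.57. The result depended on the fit and on 1 library at a time. With no filter 32 of 57 genes were lower at an unadjusted p under 0.05, against 2.62% of all genes. With the replicate block 10 of 53 were lower (3.29% of all genes), as with the share of Gm42418 as a covariate (3.15%). With total counts or only the compared groups 0 were. Without IR 3 the median was −2.82 and 43 of 54 genes were lower at an unadjusted p under 0.05, against 4.68% of all genes. Without sham 1 it was −1.08 with 12 of 55 lower, against 3.79% of all genes, and without sham 2, sham 3, IR 1 or IR 2 it lay between −0.26 and −0.17 with 0 of 55. The share of Gm42418 counts moved with part of this pattern, being highest in sham 1 (28.4%) and lowest in IR 3 (17.2%), and its part in the result was not tested beyond a fit with that share as a covariate, in which the median was −1.12.

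The promoters of these genes show letters that resemble the interferon-stimulated response element, which IRF factors bind. RefSeq promoters of build GRCm38.p6, from 250 bases before to 50 after the start of the gene, were searched on both strands for GAAA, any 2 bases and GAAA, or the reverse complement TTTC, any 2 bases and TTTC. Of the 53 genes 40 had a promoter in the table, and 20 of these (50%) held the letters, against 295 of 8263 tested genes (3.57%) and 0 of 16 luminal genes. The list was made of known interferon response genes, so this share is a description and no site is implied. The 3 promoters below are shown as examples of windows that hold the letters, from genes whose levels are given above, each on the minus strand and written 5' to 3' with the matching letters in capitals, and overlapping matches run together. Isg15 (chr4:156200769-156201068) holds 3 overlapping matches that begin 78 bases before the start, Bst2 (chr8:71537423-71537722) holds 2 from 130 bases before it, and Rsad2 (chr12:26456403-26456702) holds 1 in the reverse form from 120 bases before it.
Isg15: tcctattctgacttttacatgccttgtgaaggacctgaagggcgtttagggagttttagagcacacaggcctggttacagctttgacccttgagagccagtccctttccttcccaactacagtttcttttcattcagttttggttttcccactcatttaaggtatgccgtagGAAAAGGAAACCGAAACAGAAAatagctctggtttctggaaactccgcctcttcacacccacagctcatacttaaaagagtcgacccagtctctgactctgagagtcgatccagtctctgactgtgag
Bst2: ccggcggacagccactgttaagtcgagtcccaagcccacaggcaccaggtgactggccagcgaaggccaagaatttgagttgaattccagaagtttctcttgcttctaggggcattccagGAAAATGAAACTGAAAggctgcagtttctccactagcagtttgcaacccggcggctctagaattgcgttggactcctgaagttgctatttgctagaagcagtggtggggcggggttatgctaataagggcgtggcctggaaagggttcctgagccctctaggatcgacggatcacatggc
Rsad2: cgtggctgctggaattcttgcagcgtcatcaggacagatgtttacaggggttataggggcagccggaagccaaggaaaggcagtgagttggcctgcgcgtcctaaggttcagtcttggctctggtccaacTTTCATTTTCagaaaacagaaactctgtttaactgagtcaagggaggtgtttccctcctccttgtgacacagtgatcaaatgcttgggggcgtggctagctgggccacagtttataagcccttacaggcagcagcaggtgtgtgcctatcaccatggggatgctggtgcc
The windows of Ifit2 and Ifi44 did not hold these letters, although Ifi44 had the same order of libraries.

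Genes of MHC class I presentation followed the interferon genes. The mean of the 20 tested genes was 4.43, 5.72 and 5.78 log2 CPM in sham 1 to 3 and 4.19, 4.29 and 6.02 in IR 1 to 3. Among them 17 were both lowest in sham 1 among sham and highest in IR 3 among IR libraries, against 18.7% of all genes. B2m, the shared light chain of class I molecules, was at 276, 1008 and 928 CPM in sham 1 to 3 and 254, 257 and 1468 CPM in IR 1 to 3 (−0.16, adjusted p = 0.978). H2-K1, a classical heavy chain with close relatives that may have shared its reads, was at 207, 509 and 417 CPM in sham 1 to 3 and 215, 161 and 792 CPM in IR 1 to 3 (0.05, adjusted p = 0.993). Calr, a chaperone of the endoplasmic reticulum that assists class I folding, did not follow, at 569.5, 450.1 and 392 CPM in sham 1 to 3 and 559, 609 and 435 CPM in IR 1 to 3 (0.18, adjusted p = 0.923). With edgeR 0 of the 20 were called and 0 reached an unadjusted p under 0.05, and DESeq2 called 0. The median of −0.18 moved to −0.97 without IR 3, with 12 genes lower at an unadjusted p under 0.05 (4.68% of all genes). It was −0.57 without sham 1, with 4 lower (3.79% of all genes), and 0.15 without IR 1.

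**Figure D4:**
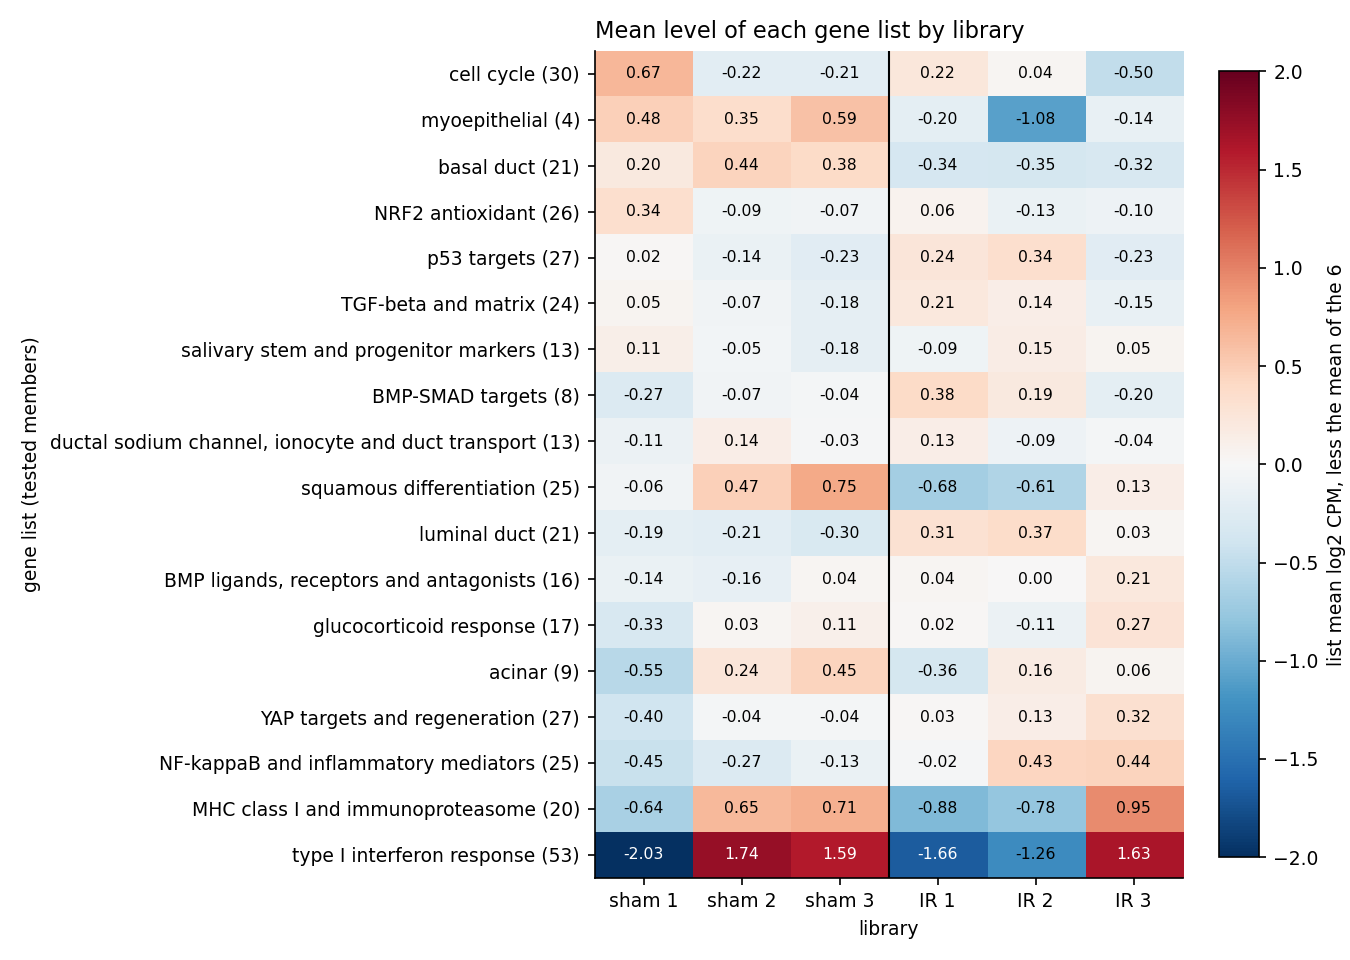
Mean log2 CPM of the tested members of each list (rows, number of members in brackets) in each library (columns), less the mean of the 6 libraries, with lists ordered by the difference of IR 3 and sham 1. Interferon genes are low in sham 1, IR 1 and IR 2 and high in the others, and basal genes differ by group, low in all 3 IR libraries.

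Proliferation genes ran opposite to the interferon genes in the same libraries. Of 30 cell cycle genes, 29 were highest in sham 1 among the sham libraries, as were 38.6% of all genes, and 23 were lowest in IR 3 among the IR libraries, as were 40.7% of all genes. Mki67, the proliferation antigen Ki-67, was at 191, 91.0 and 77.5 CPM in sham 1 to 3 and 125, 120.1 and 35.5 CPM in IR 1 to 3 (−0.37, adjusted p = 0.942). Aurka, a mitotic kinase, was lower in all IR libraries, as were 5.49% of all genes. It was at 17.1, 15.9 and 14.2 CPM in sham 1 to 3 and 10.9, 6.64 and 5.43 CPM in IR 1 to 3 (−1.06, adjusted p = 0.737). It was the 1 member of 30 at an unadjusted p under 0.05, against 2.80% of all genes lower. The list median was −0.17, and it was 0.21 without sham 1 and 0.02 without IR 3. edgeR and DESeq2 called 0, with no DESeq2 adjusted p for Aurka.

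Targets of p53, the factor that responds to DNA damage, were higher by sign for 19 of 27 genes, with a median of 0.28. At an unadjusted p under 0.05, 4 were higher, against 3.93% of all genes, and edgeR and DESeq2 called 0. Mdm2, which marks p53 for degradation, was at 107, 68.5 and 71.1 CPM in sham 1 to 3 and 171, 198 and 86.5 CPM in IR 1 to 3 (log2 fold change 0.88, SE 0.23, adjusted p = 0.462). Gdf15, a stress cytokine, was at 9.09, 20.1 and 9.90 CPM in sham 1 to 3 and 33.8, 41.1 and 13.8 CPM in IR 1 to 3 (1.16, adjusted p = 0.561). IR 1 and IR 2 were above all sham libraries for both, and IR 3 was not. Cdkn1a, the cell cycle inhibitor p21, was at 367, 284 and 252 CPM in sham 1 to 3 and 425, 472 and 224 CPM in IR 1 to 3 (0.31, adjusted p = 0.876) and had its lowest value in IR 3. Without IR 3, Mdm2 was called (log2 fold change 1.17, adjusted p = 0.00433) and 11 members were higher and 1 lower at an unadjusted p under 0.05, with 5.64% of all genes higher. Without sham 1 these counts were 9 and 1, with 4.86% of all genes higher, and without sham 3 they were 2 and 0, with 2.84% higher.

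Targets of the coactivator YAP and regeneration genes had 6 higher and 0 lower members of 27 at an unadjusted p under 0.05. Of all genes, 3.93% were higher and 2.80% lower. The list median was 0.16. Without sham 1 or IR 3 the counts were 4 higher and 2 lower. Of all genes, 4.86% were higher and 3.79% lower without sham 1, and 5.64% and 4.68% without IR 3. With only the compared groups the counts were 2 higher and 0 lower, against 3.13% of all genes higher. Msln, the surface protein mesothelin, had 1, 4 and 2 counts in sham and 15, 28 and 8 in IR libraries (2.89, adjusted p = 0.406), and Clu, the secreted chaperone clusterin, was at 202, 125 and 163 CPM in sham 1 to 3 and 410.0, 506 and 251 CPM in IR 1 to 3 (1.25, adjusted p = 0.530). Neither overlapped between groups, as for 6.06% of all genes in the higher direction. Ccn1, a matricellular target of YAP, reached its highest level in IR 3, at 6.25, 18.3 and 37.5 CPM in sham 1 to 3 and 25.2, 25.2 and 114 CPM in IR 1 to 3 (1.41, adjusted p = 0.720). Of 24 genes of TGF-beta signalling and matrix, 4 were higher and 0 lower at an unadjusted p under 0.05 (3.93% of all genes higher). The median was 0.05. The 4 became 2 without sham 1, sham 3, IR 1 or IR 2 in turn, against 2.84% to 4.86% of all genes higher. Fn1, fibronectin, was at 137, 87.4 and 57.3 CPM in sham 1 to 3 and 368, 244 and 98.5 CPM in IR 1 to 3 (1.33, adjusted p = 0.596), with IR 3 below sham 1. edgeR called 0 in both lists, and DESeq2 called Npnt of the second and gave no adjusted p to Msln.

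The 26 antioxidant genes under the factor NRF2 had a median of −0.03, with 2 lower and 0 higher at an unadjusted p under 0.05. Of all genes, 2.80% were lower. With a library left out, 0 to 2 members were lower. Gstm1, a glutathione transferase with close copies, was at 34.1, 62.0 and 61.1 CPM in sham 1 to 3 and 20.1, 14.6 and 23.9 CPM in IR 1 to 3 (−1.40, adjusted p = 0.680), and Hmox1, heme oxygenase, at 46.0, 88.0 and 109.8 CPM in sham 1 to 3 and 44.2, 69.7 and 22.4 CPM in IR 1 to 3 (−0.88, adjusted p = 0.712). The 17 glucocorticoid response genes, relevant because the medium holds dexamethasone, had a median of 0.04. Of these 17, Sult1a1, a sulfotransferase, was the 1 member at an unadjusted p under 0.05, against 3.93% of all genes higher. It had 1, 0 and 2 counts in sham and 12, 2 and 2 in IR libraries, too few for a fold to be given. edgeR and DESeq2 called 0 in both lists, with no DESeq2 adjusted p for Sult1a1.

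Markers of cells other than epithelium were close to 0. Of 12 immune markers, 7 had no count in any of the 6 libraries, and the summed level of the list was 0.861 to 1.18 CPM in sham and 2.17 to 7.30 CPM in IR libraries. Lyz2, lysozyme of macrophages and the member with the highest level, had 0, 0 and 0 counts in sham and 6, 2 and 0 in IR libraries. Of 6 endothelial markers, 3 had no count, and the sum was at most 0.591 CPM in sham and 1.09 to 1.99 CPM in IR libraries. The 6 glial and neuronal markers summed to 2.15 to 5.12 CPM in sham and 0.573 to 1.99 CPM in IR libraries, led by Tubb3, a neuronal tubulin (3.98, 0.591 and 0.861 CPM in sham 1 to 3 and 0.573, 1.99 and 0.362 CPM in IR 1 to 3, −0.99, adjusted p = 0.878). Of 10 mesenchymal markers, 6 had no count, and Postn alone was tested. Postn, the matrix protein periostin, which epithelial cells can also express, was at 190.4, 799.7 and 791 CPM in sham 1 to 3 and 276, 100.2 and 1026 CPM in IR 1 to 3 (−0.34, adjusted p = 0.964). It was high in sham 2, sham 3 and IR 3, the libraries high in interferon genes, and its part in any result was not tested. Besides Lyz2 and Postn, the immune and mesenchymal lists hold no gene with enough counts for the test.

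To ask whether the IR effect at this day and passage differed from those beside it, it was compared with the effect in passage 1 of the same day and in passage 2 at day 90, which share no library with it. In passage 1 of day 14 alone edgeR called 0.341% of genes between IR and sham, and in passage 2 of day 90 it called 4.92%. It called 0 of 10563 genes (0%) for the difference from passage 1, with 6.90% at an unadjusted p under 0.05, and 1 gene (0.00947%) for the difference from day 90, with 5.14% at an unadjusted p under 0.05. DESeq2 called 20 genes (0.214%) for the first and 2 (0.0189%) for the second. Krt8 had a log2 fold change of 0.36 (SE 0.20) in passage 1 at day 14. In passage 2 at day 90 it was 1.75 (SE 0.21) and was called (adjusted p = 0.000195), beside 1.22 here. The difference from passage 1 was 0.85 (SE 0.29, adjusted p = 0.513) and that from day 90 was −0.53 (SE 0.29, adjusted p = 0.951). For Wfdc2 the 3 effects were 0.35, 0.70 and 1.35 in the same order, and the 0.70 at day 90 was called (adjusted p = 0.0391). Its differences of 1.01 and 0.65 did not pass (adjusted p = 0.351 and 0.897). Ltf had −0.36 and 0.39 in the other comparisons beside 2.28 here, and the difference from passage 1 was 2.64 (SE 0.59, adjusted p = 0.181). Cp had a difference of 2.33 (SE 0.51, adjusted p = 0.181) from passage 1, where its effect was −0.55. In passage 2 at day 90 Cp was higher by 1.34 and was called (adjusted p = 0.0302). The difference of Cp from day 90 was 0.44 (SE 0.50, adjusted p = 0.996).

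Id1, Id2 and Id3 had positive IR effects in the 3 comparisons. Those of Id1, Id2 and Id3 were 1.36, 1.25 and 1.22 in passage 1 at day 14, where Id2 was called (adjusted p = 0.0296). In passage 2 at day 90 they were 2.33, 1.48 and 2.83, and each was called (adjusted p = 0.00577, 0.00142 and 0.00409). None of their differences passed, with adjusted p of 0.951 or more. Bmp4 had 0.74 and 3.62 beside 2.24 here, and the 3.62 at day 90 was called (adjusted p = 0.000353). Its differences were 1.50 (SE 0.89, adjusted p = 0.804) and −1.38 (SE 1.08, adjusted p = 0.971). The squamous median changed sign between the passages of day 14, from 1.65 in passage 1 to −0.62 in passage 2. Krt6a had 1.50 in passage 1 and a difference of −2.65 (SE 0.61, unadjusted p = 0.000276, adjusted p = 0.195). Fn1 was higher by 4.17 at day 90 (adjusted p = 0.000195) against 1.33 here, a difference of −2.84 (SE 0.67, unadjusted p = 0.000341, adjusted p = 0.396).

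S100a8, a subunit of the neutrophil and keratinocyte protein calprotectin, was chosen after its values were seen. It stood at 59.7, 36.0 and 65.5 CPM in sham 1 to 3 and 20.1, 23.9 and 64.8 CPM in IR 1 to 3, with IR 3 in the sham range, and its IR effects were −0.53 here, 3.76 in passage 1 and −4.15 in passage 2 at day 90. The differences were −4.29 (SE 0.86, adjusted p = 0.181) and 3.62 (SE 0.74, adjusted p = 0.338). Ccl8, a chemokine for monocytes and the 1 gene called, also lies outside the fixed choice of genes. It had 4, 1 and 1 counts in sham and 7, 14 and 9 counts in IR libraries here, against 12.3, 21.9 and 28.2 CPM in sham and 2.08, 1.67 and 1.62 CPM in IR libraries at day 90. Its difference was 5.73 (SE 0.90, adjusted p = 0.0229), with an effect of 2.26 here (adjusted p = 0.561) and −3.47 at day 90 (adjusted p = 0.00104). The call was lost without sham 2, sham 3 or IR 2 of day 14, with only the compared groups, with the replicate block and with the share of Gm42418 as a covariate.

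**Figure D5:**
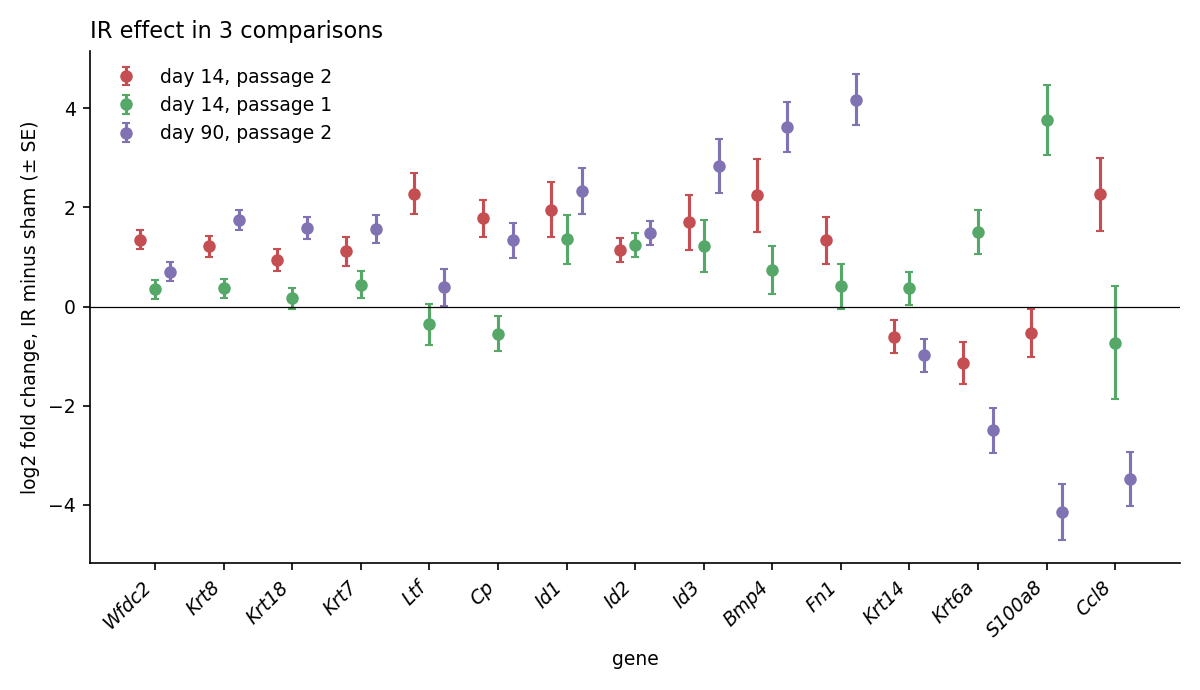
Log2 fold change of IR minus sham (y axis, points with SE) of 15 genes (x axis) in passage 2 at day 14 (red), passage 1 at day 14 (green) and passage 2 at day 90 (purple). Krt7, Krt8, Krt18, Id1, Id2 and Id3 are above 0 in all 3, Krt6a is 1.50 in passage 1 and below 0 in both passage 2 comparisons, and Ccl8 in passage 2 is above 0 at day 14 and below 0 at day 90.

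Interferon levels were uneven in the neighbouring groups as well. The mean of the 53 genes was 3.38, 5.65 and 2.97 log2 CPM in sham and 2.37, 2.24 and 2.50 in IR libraries of passage 1 at day 14, and 5.10, 5.80 and 6.09 in sham and 3.66, 4.90 and 4.68 in IR libraries of passage 2 at day 90. The libraries of passage 2 at day 14 were set beside those of the same treatment in passage 2 at day 90. Sham 1 lay below that range and IR 3 above it. IR 1 (2.48) and IR 2 (2.87) lay below it as well, and sham 2 (5.87) and sham 3 (5.72) lay within it. No interferon gene named above had a called difference between the effects.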

How the data were processed

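The authors deposited raw counts per gene for each library, per the values of the files, as whole numbers for 47643 genes, of which 47224 had a symbol in the GENCODE and RefSeq tables of GRCm38. Demultiplexing with bcl2fastq and the build GRCm39 are listed, per the submitters' processing notes. Aligner, counter, annotation and strand setting were not given in the sources used here. Left out were the 5 lines that name no gene, and reads without a gene were 12.9% to 22.1% of a library. edgeR 4.0.16 in R 4.3.3 (limma 3.58.1) kept 10563 genes with filterByExpr, scaled by TMM and fitted 1 mean per group over all 24 libraries. Quasi-likelihood F tests were two-sided, with Benjamini-Hochberg adjustment over all genes and a threshold of 0.05. The SE is the log2 fold change divided by the square root of F. The 3 comparisons were IR against sham, and its difference from passage 1 of day 14 and from day 90. DESeq2 1.42.0 was an alternative. Others were median-of-ratios factors, total counts, no filter, 5 CPM in 3 libraries, only the compared groups, a replicate block, leaving out ribosomal RNA genes, the share of Gm42418 as covariate, and each library left out.

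Whether replicates were separate mice or cultures is not in the labels, so p-values measure the spread between libraries, which may be technical. Named were 15 fixed genes, all called genes, the 8 smallest p in each direction with a mean of at least 5 CPM, no overlap and no predicted-gene name, up to 2 genes per list with an unadjusted p under 0.05, the 6 and 3 highest interferon and MHC genes, and the highest member of each cell type list, 65 in all. Further list members, DESeq2 calls, S100a8 and Ccl8 were added for their role or after their values were seen. The 22 lists have 484 entries, 482 of which matched. Members and lists were chosen with earlier results of these data known. The test was tried on simulated data. Folds are not given for genes at or under 3 counts in a group, and such counts carry counting error only.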

Additional observations from a re-analysis of the deposited data

Results flagged for a closer look

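The IR effect on Ccl8 differed between days in passage 2. The difference of the log2 fold changes, day 14 minus day 90, was 5.73 (SE 0.90, edgeR adjusted p = 0.0229) in a test of the difference itself. The sham libraries held 4, 1 and 1 counts at day 14 and 41, 72 and 75 counts at day 90, and the IR libraries of day 14 held 7, 14 and 9 counts. All 3 IR libraries were above sham at day 14 and below sham at day 90.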

How the results depend on the processing

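Few calls were stable. The count of 2 genes became 17 with DESeq2, 200 with no filter, 0 with only the compared groups, 5 with the replicate block, 6 with the share of Gm42418 as a covariate and 0 to 38 with each library left out, 7 without sham 1, 38 without IR 3 and 0 without each of the others. With only the compared groups, 529 genes had an unadjusted p under 0.05. The difference from passage 1, with 0 calls, gave 20 with DESeq2, 241 with no filter, 5 without IR 3 and 0 to 5 over the left-out libraries. The difference from day 90, with 1 call, gave 2 with DESeq2, 129 with no filter, 0 with only the compared groups, 0 with the Gm42418 covariate and 0 to 1 over the left-out libraries. The cause was not tested. The deviations of same-numbered libraries from their group means correlated at 0.36, −0.18 and 0.31. Those of differently numbered libraries correlated at −0.43 to 0.30. With sham 1 and IR 3 apart from their groups, these values cannot decide whether replicate numbers pair the libraries. The 5 genes called with the block were Wfdc2, Krt8, Fn1, Tnip3 and Sox2.

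Of 65 named genes under 15 alternatives, or 14 for the 11 genes not tested with only the compared groups, 7 changed sign, 6 of them only when 1 library was left out. H2-K1 was −0.19 with the block and −0.30 with the Gm42418 covariate. The left-out range was −1.01 to 0.42 for H2-K1, −1.53 to 0.23 for B2m, −1.37 to 0.16 for Pip, −1.65 to 0.13 for Postn, −0.088 to 0.72 for Aqp5, −0.66 to 0.13 for Mki67 and −1.85 to 0.19 for Tubb3. Depth limits genes at a few CPM, such as Bmp4, Msln and Npnt.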
